A study of Mus musculus with 6 samples.

Results

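Complex splicing variations, those in which an exon can be joined to many partners, were described in mouse hepatocytes on 2 diets. A local splicing variation is a reference exon together with all junctions that enter it or all junctions that leave it, and each such junction is called an entry here. A variation was taken when it was listed with identical entries for both diets, had at least 4 entries and held no retained intron. This rule used no measured value and gave 2284 variations in 1410 genes, 8.49% of the 26910 variations listed for both diets. The hepatocytes came from male C57BL/6J mice raised on a chow with 13.5% fat and moved at an age of 8 weeks to a low-fat diet (LFD, 10% fat) or a high-fat diet (HFD, 60% fat), which they ate for 12 weeks. Each diet had 3 libraries of stranded, poly(A)-selected RNA read as paired ends of 100 cycles, and the labels name no transgene or deletion. The question, as the series states it, is how splicing in hepatocytes differs between obese and lean mice.

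In an exon with many partners, transcripts compete: an alternative promoter supplies another first exon, a cassette exon is taken or skipped, or a splice site a few bases away is chosen. Such choices can swap the start of a protein, insert or remove a stretch within it, or change only an untranslated leader. In liver the best known case is the Ugt1a locus, where many first exons, each encoding the part of a glucuronosyltransferase that binds the substrate, are joined to a shared set of later exons.

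The values are PSI, the share of a variation's reads that use an entry, given as a posterior mean with a posterior SD. The 3 libraries of a diet were pooled by the authors into 1 PSI per entry. The SD therefore covers reads and not mice, no difference below has a replicate check, and no p-value of this work is given. The PSI rule asked of an entry a gap of 0.2 or more between diets that also exceeded the normal 95% limit set by the posterior variances, and a variation was past it when any of its entries was. An entry counted as used when its PSI was at least 0.05 on either diet. Entries printed at 0.013 were at or next to the lowest value that the tables hold.

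The junctions of 4 variations past the PSI rule show what an entry is. Each line gives the last 15 transcribed bases of the upstream exon followed by the next 15 of the downstream exon, 5′ to 3′, from GENCODE transcripts of GRCm38. Capitals mark the exon that differs between the entries of a variation, and lower case the reference exon they share. The genes were picked because their flanking exons are coding in that annotation and their PSI differed most or, for Ugt1a5, because the junctions resemble each other, and entries are lettered by mean PSI.
Pik3r1 entry A: GACAGCCAGCACCAGcactgccccccaaac
Pik3r1 entry B: TGCATAACCTGCAAAcactgccccccaaac
Pik3r1 entry C: AAATGGATCCACCAGcactgccccccaaac
Kif21a entry A: GAAGGAACATAAACAaggcataatcaaccc
Kif21a entry B: AGTTCAGCAGGATAAaggcataatcaaccc
Kif21a entry C: TAAGATAGGCAGCATaggcataatcaaccc
Atp6v1h entry A: ATCTCTTCAAGTGATagttctcagtatgtg
Ugt1a5 entry A: AAGCCCCTATCCCAGgaatttgaagcctat
Ugt1a5 entry B: AAGCCCCTCTCTCAGgaatttgaagcctat
Ugt1a5 entry C: AAGCCCCTCTCTCAGgaatttgaagcctat
The Ugt1a5 lines B and C, from the first exons of Ugt1a2 and Ugt1a5, have the same 30 bases, so reads with short overhangs on these junctions cannot be told apart by sequence.

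Most variations had few entries more than the minimum. There were 1350 with 4 entries, 479 with 5, 226 with 6 and 53 with 10 or more. The highest number was 38, in a variation of Serpina1b, an alpha-1-antitrypsin gene. Among the 23 variations with at least 12 entries, 18 belonged to multi-copy families such as Serpina1, where a junction can join neighbouring copies. Junctions entered the reference exon in 1315 variations and left it in 969. Exon skipping was present in 97.4% of the variations, alternative donor sites in 65.1%, alternative acceptor sites in 62.3%, and all 3 kinds in 45.2%. Because an exon's entries can also belong to its neighbour's variation, the 11169 entries held 9665 distinct junctions, and the variations fell into 1668 groups that share no junction.

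A long list of entries rarely meant many junctions in use. Only 39.1% of the entries were used, and 26.2% stood at the lowest value on both diets. In 1022 variations (44.7%) 1 entry was used, in 716 (31.3%) 2 were, in 362 (15.8%) 3 were, and in 184 (8.06%) at least 4 were. The leading entry took a median PSI of 0.923 on LFD and 0.930 on HFD. Used entries were mostly annotated: 46% of all entries matched no GENCODE intron on the same strand, against 26.1% of the used ones and 8.63% of those that led on LFD. Part of these match an intron annotated only on the opposite strand: 393 of the 1138 used ones and 132 of the 197 that led on LFD. Entries without a same-strand intron are called unannotated here. The authors' deposited tables mark 0 entries as de novo, and no source used here names the annotation behind those tables. Spliced variations with 3 entries had 1 used entry in 62.7% of cases and those with 2 entries in 78.3%. Serpina1b with its 38 entries had 1 used entry, at 0.898 on LFD and 0.910 on HFD. Serpina1a, with 32 entries, also had 1, at 0.974 on both diets.

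**Figure D1:**
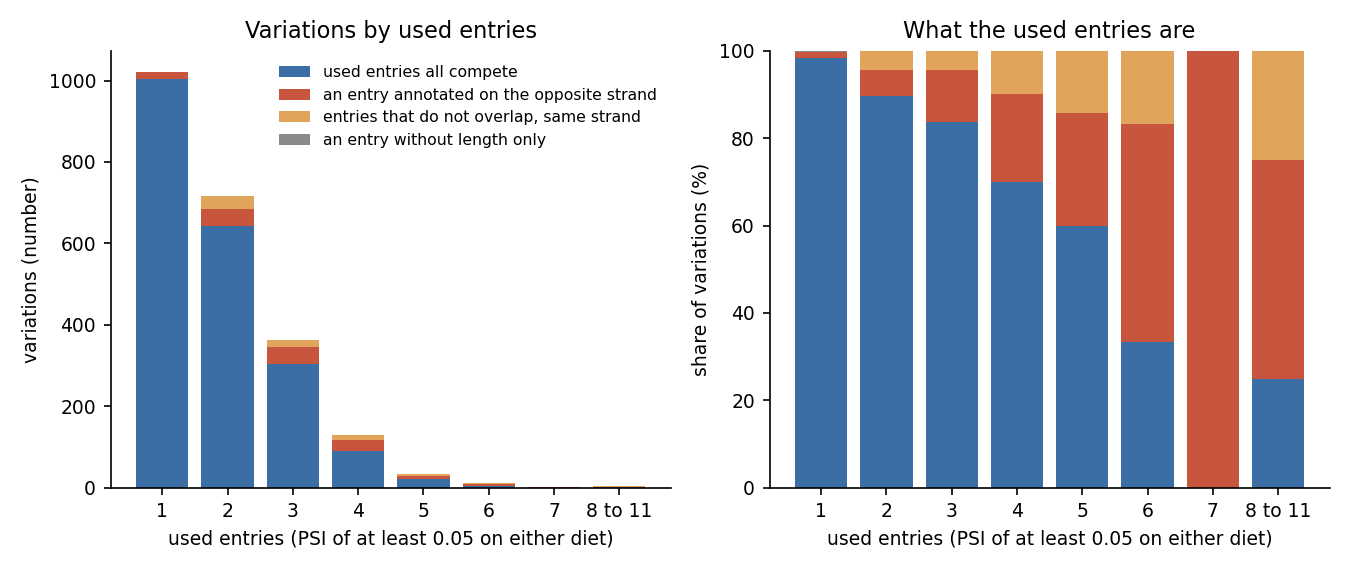
Number of variations (left, y axis) and their shares in percent (right, y axis) by the number of used entries (x axis), coloured by what the used entries are. Variations with 1 used entry are the largest class, 1022 of 2284, and the share in which the used entries all compete (they overlap each other, have length and match no intron annotated only on the opposite strand) is 98.2% at 1 used entry, where no pair can fail to overlap, and 33.3% at 6.

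Where 2 or more entries were used, they mostly chose between alternatives for the same splice site. The leading pair of used entries shared a donor or an acceptor in 1064 of 1262 variations, and the sites at the other end lay a median of 842 bp apart. They were within 3 bp in 54 variations, within 12 bp in 104 and over 1 kb apart in 496. Not all used entries were alternatives to each other. In 172 variations some used entries did not overlap each other, so that 1 transcript could use them in series. In 148 variations, 16 of them with 1 used entry, at least 1 used entry had the coordinates of an intron annotated only for a gene on the opposite strand. The libraries are stranded, but no source used here says whether the authors' splicing run used the strand, and the strand of these reads was not read from splice site bases. Reads of the gene and of its partner therefore cannot be told apart in these PSI values. These classes and the term competing, for variations with neither feature whose used entries all have length, were defined after the data were seen. Competing variations numbered 2066.

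Opposite-strand introns were a larger share of the used entries where many entries were in use. They were 195 of the 824 used entries (23.7%) in variations with at least 4, against 7.23% with 2 or 3 and 1.57% with 1. At least 1 such entry was found in 46 of the 184 variations with at least 4 used entries, against 10.5% of those with 2 or more, a count that more used entries make likelier by themselves. Taf10, which encodes a subunit of the general transcription factor TFIID, had the highest entropy in the set. Entropy measures how evenly the shares are spread and is 3.81 bits for 14 equal shares. Entries at the lowest PSI of the tables still add to it, so it also grows with the number of entries listed. Serpina1a, with 32 entries and 1 used, had 2.27 bits on both diets. The 14-entry Taf10 variation into the exon at chromosome 7, 105739393 to 105743063, minus strand, had 11 used entries. Its entropy was 3.56 bits on LFD and 3.58 on HFD. Of those 11 entries, 10 are annotated introns of Ilk, the integrin-linked kinase gene on the other strand, with PSI from 0.063 to 0.113 on LFD. The Taf10 entry itself, a coding intron of 162 bp, was at 0.164 ± 0.013 on LFD and 0.137 ± 0.012 on HFD.

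The pattern recurred in other variations of high entropy. Pcif1, which encodes an mRNA cap methyltransferase, had 8 used entries, 7 of them introns of Zfp335, a zinc finger gene on the opposite strand. The Pcif1 intron had the lowest PSI of the 8, 0.052 ± 0.013 on LFD and 0.033 ± 0.011 on HFD. B130046B21Rik, a gene with no assigned function, had 7 used entries, all introns of Prkag1, an AMP-activated kinase subunit gene. Over the 148 variations the opposite-strand entries took a median of 96.4% of the summed PSI on LFD and 96.7% on HFD, and in 132 of them such an entry led on LFD.

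Eci2, an enoyl-CoA isomerase gene of fatty acid oxidation, showed high entropy without this feature. Its variation on chromosome 13, minus strand, into the exon at 34993068 to 34993462, had 8 used entries, all annotated for Eci2, that join 3 upstream exons to 3 acceptors in the reference exon. The leading entry was at 0.247 ± 0.018 on LFD and 0.258 ± 0.021 on HFD, and entropy was 2.96 and 2.99 bits. No entry differed by more than 0.042 between diets. Eci2 thus spread its reads over many of its own junctions on both diets. The shares were not even, and the leading entry was ahead of the next by 0.084 on LFD and 0.080 on HFD.

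Some unannotated junctions removed stretches of regular length. Opposite-strand introns and entries without length were left out of this count. Of 59 variations with at least 3 other unannotated used entries, 8 had spans with a common divisor of at least 10 bp. In Ubb, the polyubiquitin gene, whose coding sequence repeats the ubiquitin unit, 5 entries spanned multiples of 228 bp, up to 684 bp, and together took 0.498 of the reads on LFD and 0.466 on HFD. In Ogfr, an opioid growth factor receptor gene with repeats near its end, 8 entries spanned multiples of 27 bp. In Prg4, which encodes the repeat-rich lubricant proteoglycan 4, 3 variations held spans in multiples of 24 bp. In F5, the coagulation factor V gene, the unit was 54 bp in 2 variations that share their exon. Cdc40, a splicing factor gene, had 4 spans in steps of 10 bp, from 70 to 100 bp. How the repeats bear on these junctions was not tested.

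Between the diets, the shares of most variations were close. The largest difference of any entry had a median of 0.0243 per complex variation, above the 0.00681 of all variations. It was under 0.05 in 69.8% of the complex variations and at least 0.1 in 247 (10.8%). Shares of all variations at these limits are not given here. Past the PSI rule were 31 variations (1.36%) in 27 genes, against 168 of all 26910 variations (0.624%). Per entry the order was the other way, and 43 of 11169 entries (0.385%) were called, against 0.417% of the entries of all variations and 0.299% of the entries of spliced variations with 2 or 3. Variations with a retained intron were past the rule in 1.04% of cases. The share past the rule went up with the number of entries, from 0.275% with 2 entries and 0.71% with 3 to 0.815% with 4, 1.88% with 5 and 2.42% with 6 or more. At a matched number of used entries the complex variations were not above the whole: 1.12% were past the rule with 2 used entries, against 1.4% of all variations with 2, and 4.21% with at least 3, against 5.6%. This match is limited, since an entry can count as used through the same difference that the rule counts. The whole also includes the complex variations themselves and variations with a retained intron. No variation with 1 used entry was past the rule. The definitions largely fix this, since its other entries all stayed under 0.05 on both diets.

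The rule's threshold of 0.2 had close neighbours on both sides. Serpina1a was just inside, with a difference of 0.202, and Sphk2, a sphingosine kinase gene, just outside, with 0.196. Of the 31 variations, 10 belonged to multi-copy families, 4 had used entries annotated on the opposite strand, and 6 had used entries that do not overlap. Competing entries outside multi-copy families accounted for 14 of the 31, out of 1809 such variations (0.774%). Those reported here lie in Kif21a, Atp6v1h, Pik3r1, Nrp1, Rbm25, Nudt9, Ghr, Dhrs3 (2 variations), Fam47e, 9030622O22Rik and RP24-458J4.2. The last 3 fall outside the rule for named genes and were chosen after their values were seen.

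Kif21a, which encodes a plus-end kinesin motor that limits microtubule growth, had reads less spread over its entries on HFD. Its reference exon lies on chromosome 15, 90943765 to 90943901, minus strand. Entry A, which joins it to a coding exon of 108 bp by a junction that is not annotated, had 0.587 ± 0.037 on LFD and 0.859 ± 0.042 on HFD. Entry B, from a coding exon of 129 bp, had 0.269 ± 0.033 on LFD and was at the lowest value, 0.013, on HFD. Entry C, which leaves out both of those exons, was at 0.108 ± 0.023 and 0.133 ± 0.041, a difference within its posterior SDs. In the authors' deposited JUM table, made by another splicing program, entry A was 0.163 higher on HFD (adjusted p = 0.0122).

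Atp6v1h encodes subunit H of the vacuolar proton pump that acidifies lysosomes. Entry A, which comes from a coding exon of 54 bp on chromosome 1, 5101070 to 5101123, plus strand, had 0.701 ± 0.028 on LFD and 0.965 ± 0.014 on HFD. An unannotated junction of 3617 bp went the other way, at 0.173 ± 0.025 on LFD and 0.013 on HFD. The other 6 entries stayed under 0.05 on both diets.

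Pik3r1, which encodes the regulatory subunits of phosphoinositide 3-kinase that bind activated insulin receptor substrates, had another leading entry on each diet. Its variation lies on chromosome 13, minus strand, and its entries come from different upstream exons. Entry A comes from an inner exon of the longest coding transcript, Pik3r1-202, with 724 codons. Entry B comes from the first exon of a further, shorter transcript model, and entry C from the first exon of Pik3r1-201, with 454 codons. Entry A had 0.687 ± 0.040 on LFD and 0.437 ± 0.038 on HFD, while entry B had 0.292 ± 0.039 and 0.474 ± 0.039. Entry C had 0.019 ± 0.012 and 0.077 ± 0.020. Reads were thus shared more evenly on HFD, with an entropy of 1.40 bits against 1.08 on LFD, and the lead of entry B there was 0.037, under its posterior SD. The authors' deposited table of differences lists entry A with a change of -0.228.

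Ghr, the growth hormone receptor gene, varied at the start of its transcript, where 3 entries leave a leader exon on chromosome 15, minus strand, by different donors and share an acceptor about 124 kb away, the spans being 124249, 124136 and 124054 bp. The entry of 124136 bp, not annotated, had 0.276 ± 0.033 on LFD and 0.061 ± 0.020 on HFD, and the annotated entry of 124249 bp had 0.305 ± 0.034 and 0.481 ± 0.042.

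Rbm25 and Nudt9 had annotated entries alone. In Rbm25, which encodes a splicing factor, the entry of 10211 bp hardly differed, at 0.467 ± 0.047 on LFD and 0.435 ± 0.049 on HFD. The entry of 109 bp had 0.259 ± 0.041 and 0.485 ± 0.050, and that of 3437 bp had 0.273 ± 0.041 and 0.078 ± 0.026. The exchange in Rbm25 was thus between its 2 shorter introns. In Nudt9, an ADP-ribose hydrolase gene, the entry of 3431 bp had 0.605 ± 0.039 on LFD and 0.827 ± 0.031 on HFD, and the entry of 3739 bp, in the 5′ leader, had 0.393 ± 0.039 and 0.170 ± 0.031. The authors' deposited JUM table lists the latter with -0.211 (adjusted p = 0.0599).

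**Figure D2:**
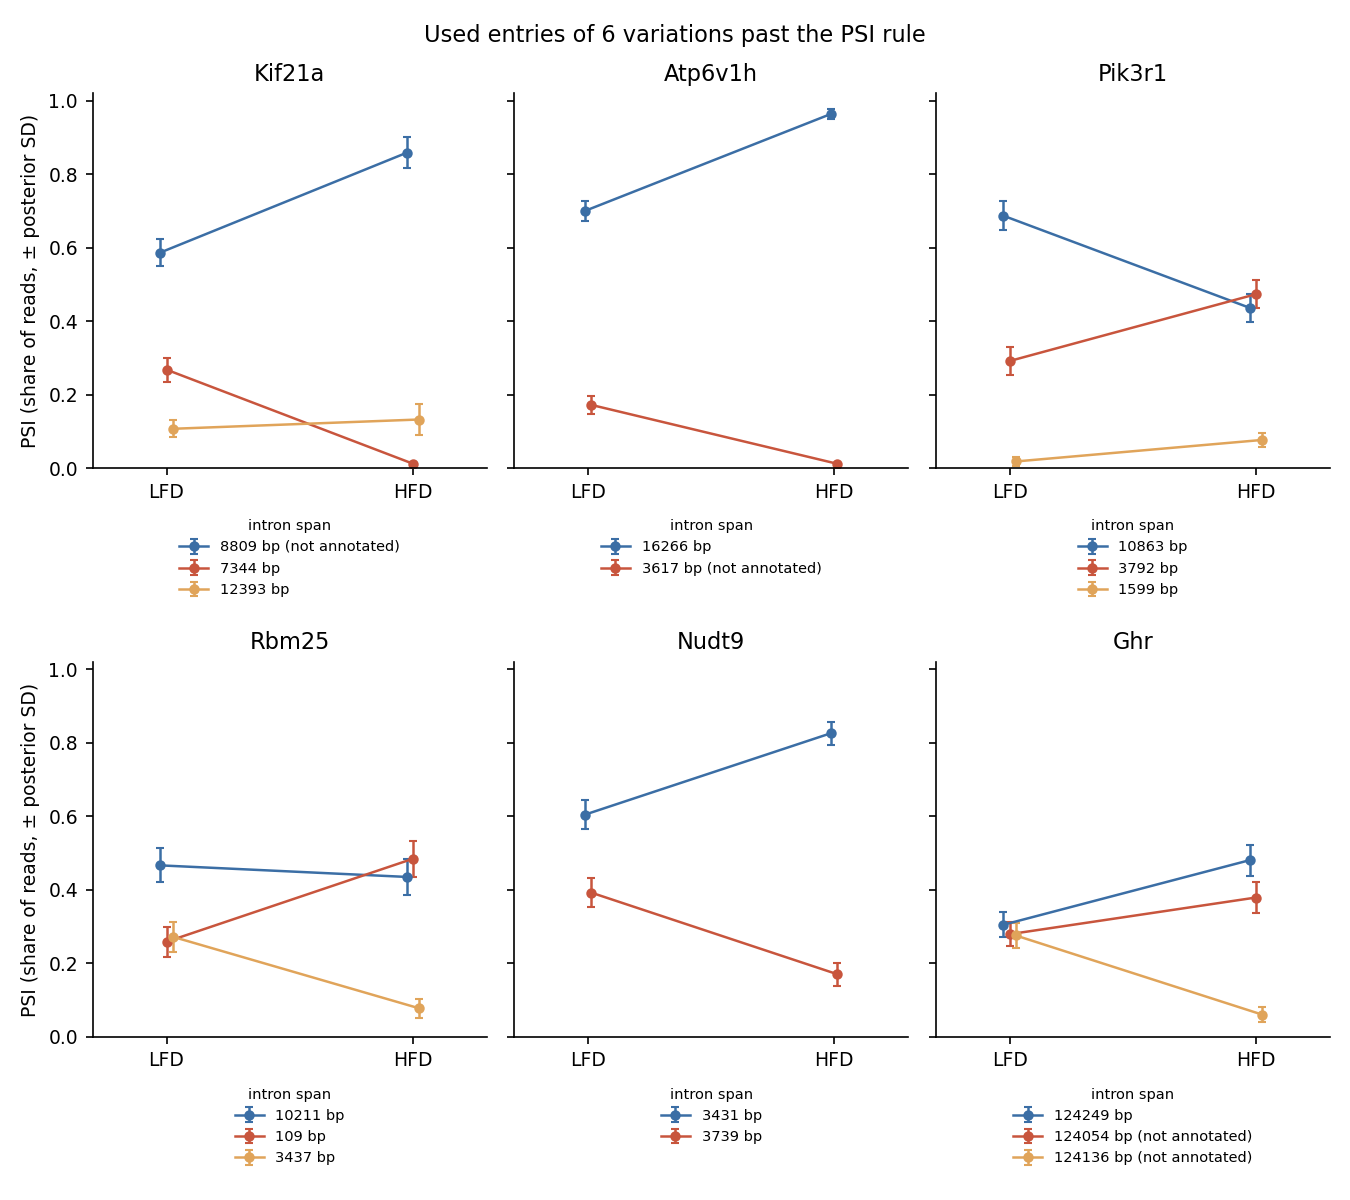
PSI (y axis, points ± posterior SD) on LFD and HFD (x axis) of the used entries of 6 variations past the PSI rule, each entry named by its intron span. In Kif21a, Atp6v1h and Nudt9 the leading entry is higher on HFD, in Pik3r1 it is lower, and in Rbm25 and Ghr the entry that differs most is not the one that leads on LFD.

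Dhrs3 and Nrp1 differed at unannotated sites. In Dhrs3, which encodes a retinaldehyde reductase, a donor on chromosome 4, plus strand, met acceptors at 144893582, 144893585 and 144893611. The annotated acceptor, 144893585, had 0.928 ± 0.029 on LFD and 0.637 ± 0.054 on HFD, and the one 3 bp before it had 0.034 ± 0.021 and 0.272 ± 0.050. In Nrp1, a semaphorin and growth factor co-receptor gene that is also an endothelial marker, neither leading entry was annotated. The entry of 3960 bp had 0.498 ± 0.047 and 0.255 ± 0.053, and the entry of 14326 bp 0.477 ± 0.047 and 0.659 ± 0.058. PSI is a share within the gene, so it gives no level for any cell type's RNA. Of the other endothelial markers none had a complex variation, nor had any macrophage or stellate marker.

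In Ctsa and Nr1i3 the difference moved with a gene on the other strand. Ctsa encodes the lysosomal carboxypeptidase cathepsin A, and its own intron of 201 bp had 0.226 ± 0.017 on LFD and 0.628 ± 0.026 on HFD, the largest difference outside multi-copy families. The other 3 used entries are introns of Pltp, the phospholipid transfer protein gene on the opposite strand, with PSI between 0.249 and 0.261 on LFD and between 0.114 and 0.132 on HFD. Among the entries not annotated on the opposite strand alone, the Ctsa intron took 0.901 on LFD and 0.962 on HFD, a difference of 0.061. Nr1i3, which encodes the nuclear receptor CAR, a regulator of drug and lipid metabolism, had its leading intron of 857 bp at 0.374 ± 0.024 and 0.621 ± 0.027. Its 3 entries that are introns of Tomm40l, a mitochondrial import gene, were each lower on HFD, and opposite-strand entries together took 55.7% of the summed PSI on LFD and 25.6% on HFD. Without them the Nr1i3 intron took 0.836 on LFD and 0.823 on HFD, and the variation was no longer past the rule. Both variations are listed in the authors' deposited table of differences.

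**Figure D3:**
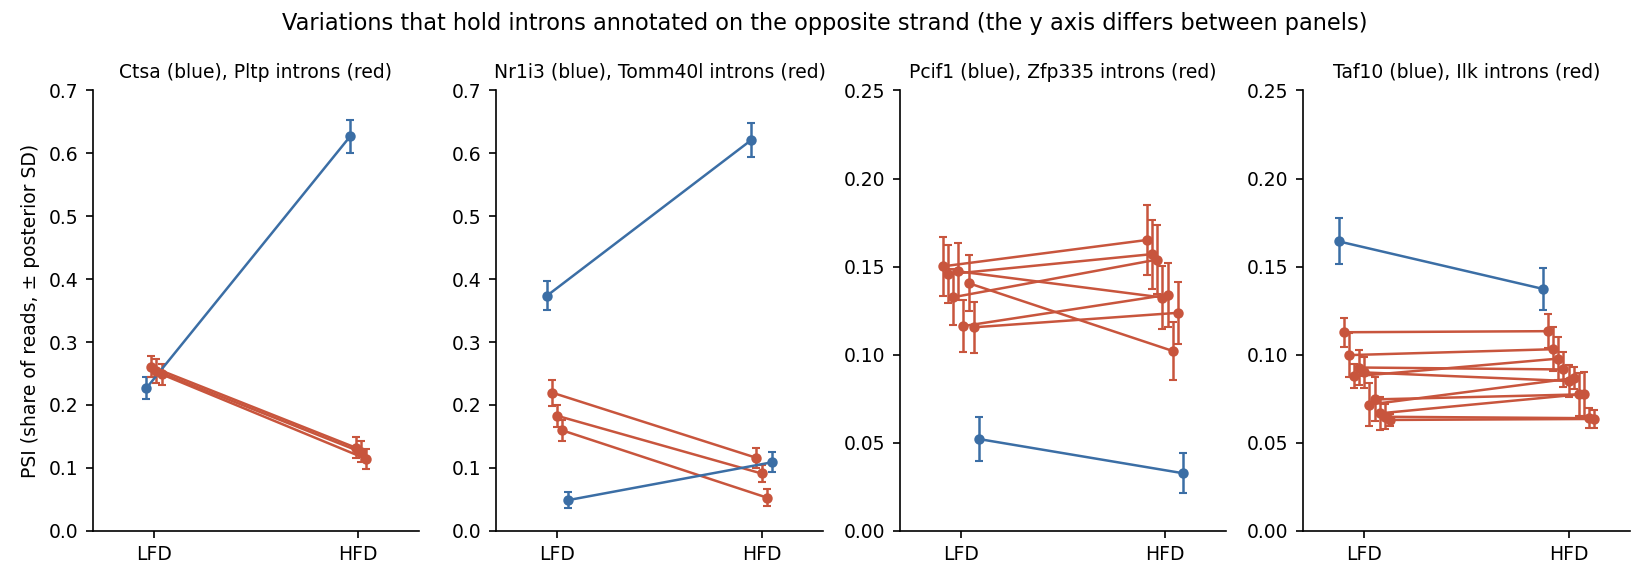
PSI (y axis, points ± posterior SD, with a scale per panel) on LFD and HFD (x axis) of the used entries of 4 variations, with entries of the variation's gene in blue and entries annotated only for the opposite-strand gene in red. The Pltp and Tomm40l introns are all lower on HFD, while the 10 Ilk introns in Taf10 and the 7 Zfp335 introns in Pcif1 stay within 0.04 of their LFD values.

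A further pair past the rule had opposite-strand entries. In Tcp1, a chaperonin subunit gene, an intron of Mrpl18 of 122 bp had 0.620 ± 0.029 on LFD and 0.404 ± 0.031 on HFD, and in E130218I03Rik both used entries were introns of Zfp593. Without the opposite-strand entries neither was past the rule: the leading entry left in Tcp1 took 0.925 on LFD and differed by under 0.05 on HFD, and those left in E130218I03Rik were all unused. Differences of this kind were few: the opposite-strand share differed by at least 10 percentage points between diets in 7 of the 148 variations, and the median difference was 0.134 points.

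Multi-copy families held the largest differences of the whole set. In Serpina3k, of the antichymotrypsin cluster, an unannotated junction of 48517 bp was at 0.013 on LFD and 0.987 on HFD, while one of 48451 bp was at 0.570 ± 0.074 and 0.013. An intron annotated for the neighbouring copy Serpina3m had 0.336 ± 0.064 on LFD and the lowest value on HFD. Both junctions also stand in a variation of Serpina3m past the rule, with other entries. There the junction of 48517 bp had 0.013 on LFD and 0.317 ± 0.055 on HFD, and the Serpina3m intron 0.986 ± 0.005 and 0.676 ± 0.055. The size of these differences thus depends on the entry set. The effective read number, computed from PSI and its posterior variance, was 44.3 on LFD in the Serpina3k variation. In Mup16, a major urinary protein gene, a junction of 262732 bp had 0.791 ± 0.028 on LFD and 0.186 ± 0.031 on HFD, and the annotated intron of 786 bp had 0.119 ± 0.022 and 0.593 ± 0.039. The near-identical copies make these assignments uncertain. Gm21992, whose model overlaps Rbm4, an RNA-binding protein gene, had 2 variations on chromosome 19 that share their junctions. The Rbm4 leader intron of 995 bp had 0.464 ± 0.044 and 0.768 ± 0.042 in the variation entering the exon. The authors' deposited JUM table lists it under Rbm4 as 0.383 higher on HFD (adjusted p = 0.0385).

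At the Ugt1a locus the same junction had another PSI in each variation that lists it. The intron of 2172 bp from the Ugt1a1 first exon, on chromosome 1, 88212871 to 88215044, plus strand, stands in complex variations under 8 gene models, with 4 to 9 entries each. Under Ugt1a5, with 4 entries, it had 0.687 ± 0.025 on LFD and 0.916 ± 0.014 on HFD, past the rule. Under Ugt1a10, with 9, it had 0.447 ± 0.025 and 0.550 ± 0.031, and under Ugt1a6b, with 6, it had 0.402 ± 0.026 and 0.443 ± 0.027. Gm20528, a gene model at the same place that the rule for named genes does not take, had 0.449 ± 0.026 and 0.548 ± 0.031. All 5 used entries of the Gm20528 variation are introns annotated only on the opposite strand from it, this junction among them. All 8 values were higher on HFD, by 0.041 to 0.229. These 8 are the same reads over other denominators and not separate observations. The authors' deposited JUM table gives the same junction -0.0166, of opposite sign, in an event of adjusted p = 0.00127.

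**Figure D4:**
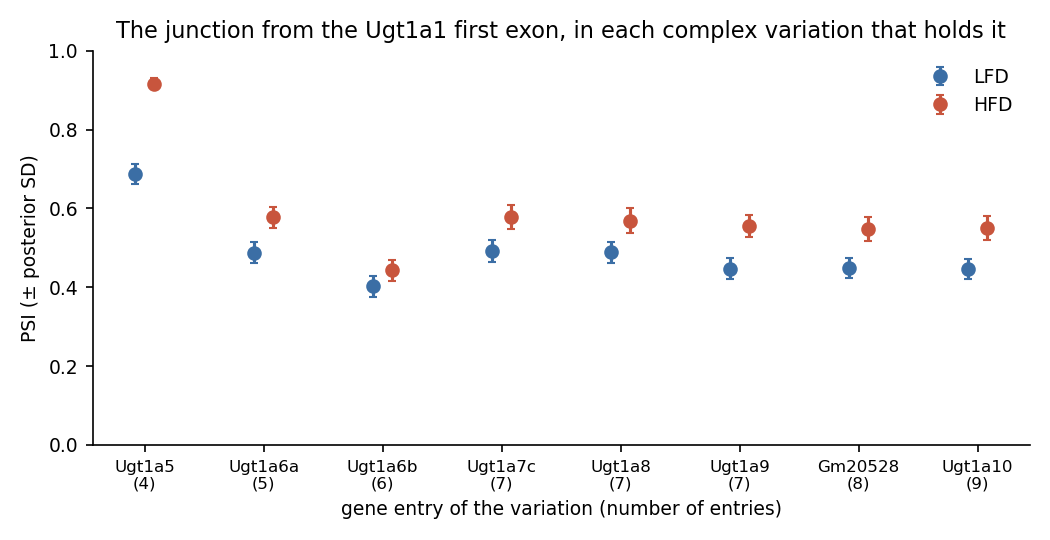
PSI (y axis, points ± posterior SD) on LFD and HFD of the junction from the Ugt1a1 first exon in each of the 8 complex variations that hold it (x axis, with the number of entries in brackets). HFD is above LFD in all 8, Gm20528 included, for which the junction is an opposite-strand intron, and the gap is widest under Ugt1a5, where the variation has only 4 entries.

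The leading entry was another one on HFD than on LFD in 77 variations (3.37%) in 71 genes, against 0.862% of all variations and 1.19% of spliced variations with 3 entries and 0.383% of those with 2. Most were near ties: in 70 of the 77 the lead was under 0.1 on at least 1 diet, and in 39 no entry differed by as much as 0.1. Opposite-strand entries were present in 30 of the 77 (39%) and entries that do not overlap in 32 (41.6%). Among all complex variations with 2 or more used entries these shares were 10.5% and 13.6%. A lead of at least 0.1 on both diets was found in 7: Serpina3k, Mup16, E130218I03Rik, Tcp1, 9030622O22Rik, Luc7l2 and Tti2, of which the last 4 were named to complete the count. Luc7l2, which encodes a U1 snRNP-associated splicing factor, was the only one of these with annotated entries of its own gene alone. Its coding intron of 18601 bp had 0.599 ± 0.042 on LFD and 0.424 ± 0.049 on HFD, and its leader intron of 3071 bp had 0.398 ± 0.042 and 0.572 ± 0.049.

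Spread of the reads over entries did not move 1 way between diets. Entropy was higher on HFD in 45.1% of the variations (exact binomial 95% interval 43.0% to 47.2%, a description, since variations are not replicates), lower in 47.0% and equal in 7.92%. Its median difference was 0. Over all 26910 variations it was higher in 51.4% and lower in 43%. Large falls outnumbered large rises, 22 to 9 at a difference of at least 0.5 bits. The median effective read number, computed from PSI and its posterior variance in 898 variations, was 234 on LFD and 184 on HFD. Entropy was higher on HFD in 44.8% of those 898 and in 47.8% of the 391 among them in which the lower effective read number was at least 0.8 of the higher. Counts of large falls and rises in these 391, or over all variations, are not given here. Prg4, Atp6v1h and Kif21a were among the 4 largest falls of variations with every posterior SD under 0.05, with HFD minus LFD between -0.874 bits in Prg4 and -0.682 in Kif21a.

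Among the rises under the same limit were Mup16, Slc2a9, Hamp2 and Smarcc2. In Slc2a9, a urate transporter gene, the leader intron of 8512 bp led with 0.986 ± 0.007 on LFD and 0.825 ± 0.041 on HFD, and an unannotated junction of 4717 bp was at the lowest value on LFD and at 0.170 ± 0.041 on HFD. In Smarcc2, a chromatin remodelling subunit gene, the leading coding intron had 0.946 ± 0.018 and 0.785 ± 0.034. Hamp2, a hepcidin gene, had 0.894 ± 0.013 and 0.770 ± 0.023 for its own intron, with the rest on unannotated junctions of about 20 kb. None of Slc2a9, Smarcc2 and Hamp2 had an entry past the PSI rule.

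**Figure D5:**
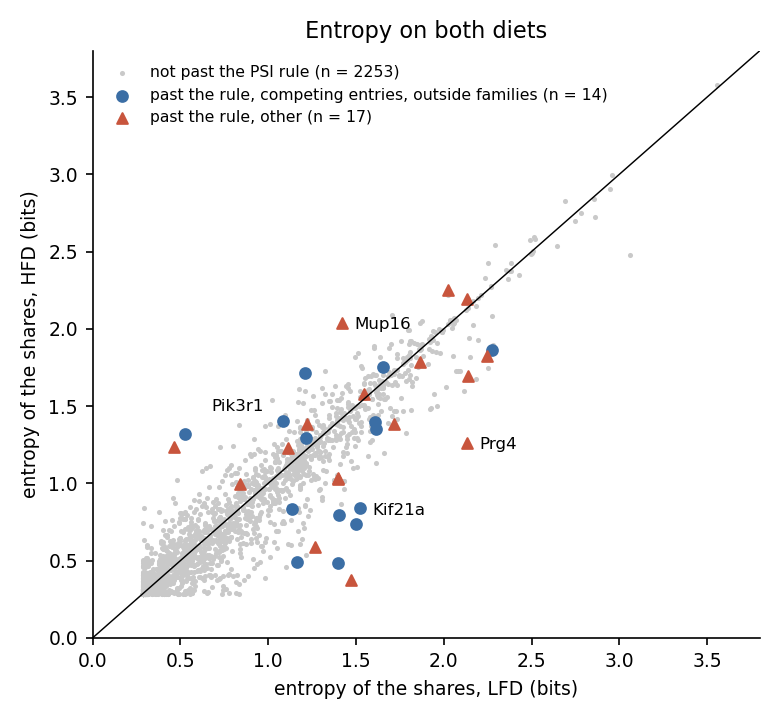
Entropy in bits on LFD (x axis) and HFD (y axis) of all 2284 variations, with the 31 past the PSI rule in colour and a line of equality. Kif21a lies at 1.52 bits on LFD and 0.839 on HFD, Pik3r1 lies above the line, and most of the uncalled variations lie near it.

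Some variations kept many shares nearly equal between diets. Among those with a mean entropy of at least 1.5 bits, Proc, which encodes the anticoagulant protein C, had 3 used entries with a leading PSI of 0.613 on both diets and a total variation distance, the share of reads that would have to move, of 0.004. Gm20721, whose 3 used entries are all opposite-strand introns of the imprinted Gnas locus, had a distance of 0.007.

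Splicing factor genes more often had several entries in use than complex variations as a whole. Of their 42 complex variations in 31 genes, 6 (14.3%) had 1 used entry, against 44.7% of all complex variations, and 36 had 2 or more. Their median largest difference was 0.0524 against 0.0243 for all complex variations, beside 0.0576 for the 5 variations of chromatin genes and 0.155 for the 2 of endothelial markers, and 1 of the 42, Rbm25, was past the PSI rule. The genes with the next largest differences in the list, named after their values were seen, were Luc7l2 with 0.175, Acin1 with 0.163 and Srsf7 with 0.158. In Srsf7, an SR protein gene, the coding intron of 1386 bp had 0.401 ± 0.036 on LFD and 0.559 ± 0.045 on HFD, and the one of 1377 bp had 0.463 ± 0.037 and 0.388 ± 0.044. Acin1, which encodes a splicing-associated nuclear protein, had 0.899 ± 0.027 and 0.736 ± 0.041 for its coding intron of 3586 bp.

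Among metabolic genes, lipid metabolism genes had 93 complex variations in 51 genes, of which 58 had 1 used entry, and 1 of the 93 was past the rule. Insulin and glucose genes had 44, with Ghr and Pik3r1 past it. Xenobiotic and nuclear receptor genes had 37, with Nr1i3 past it, and stress and inflammation genes 31, with 1 past it. Mitochondrial genes had 35 and chromatin genes 5, and none was past the rule. Cytoskeleton and traffic genes had 24, with Kif21a. Hepatocyte marker genes had 34 complex variations in 7 genes, 32 of them with 1 used entry, and Serpina1a past the rule. The counts past the rule are too small to set lists apart from the 1.36% of all complex variations.

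The authors' deposited tables held some of the same variations. Their table of differences lists 124 variations, 15 of which are complex ones by the rule used here, 0.657% of the 2284 against 0.36% of all variations. Of these 15, 12 were past the PSI rule and 8 had the same entries in both runs. The rest of the 31 variations past the rule are not listed there, among them those of Atp6v1h, Ghr, Rbm25 and Nrp1. The entry set mattered in B430119L08Rik, where the authors' deposited table gives a junction 0.089 on LFD and 0.998 on HFD, while the PSI tables, with other entries, give it 0.095 and 0.041. In Dhrs3 the annotated junction has 0.314 and 0.102 in that table against 0.928 and 0.637.

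In the authors' deposited JUM table, 170 entries of 107 complex variations were matched by coordinates. The direction was the same in 135 entries and opposite in 8, and in the other 27 PSI differed by under 0.0001, which was given no direction. A junction that stands in several variations was counted in each. Both sets of values come from this series, so a shared direction is not an independent check. At an adjusted p under 0.05 in that table were 26 variations in 21 genes, and most of them were not past the PSI rule. They include the Ugt1a variations with the same reference exon and those of Gm21992 with shared junctions, so they are not all separate observations. Fam214a had the junction of 1904 bp at 0.220 ± 0.027 on LFD and 0.046 ± 0.014 on HFD, and -0.189 in the authors' deposited JUM table (adjusted p = 0.00224). Ndrg2, a stress-responsive gene that is abundant in liver, had the 5′ leader intron of 1776 bp at 0.732 ± 0.024 and 0.610 ± 0.029, while its other 5 used entries were each slightly higher on HFD. The authors' deposited JUM table gives that Ndrg2 intron -0.193 (adjusted p = 0.00119). In Ube2d3, a ubiquitin-conjugating enzyme gene, the leader intron of 945 bp had 0.227 ± 0.022 and 0.366 ± 0.027, and 0.160 in the authors' deposited JUM table (adjusted p = 0.0251). Each of these exchanged reads among 3 or more used entries without passing the difference of 0.2.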

How the data were processed

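Hepatocyte RNA was sequenced in 3 LFD and 3 HFD libraries, and groups were taken from the sample titles. The submitters' processing notes name FastQC, STAR and the build mm10, without versions. According to the headers, voila, the viewer of MAJIQ, wrote the PSI values the authors deposited, fractions joined in 1 cell per variation, with a posterior variance for each as a score, pooled by the authors over the libraries of a diet. The authors' table of differences holds PSI differences as scores, and the JUM table holds changes and p-values, per the file headers. The title line of the JUM table names normal chow where its change column says HFD minus LFD, and the column was followed. Depth per library is unknown from these tables, and intervals cover counting only.

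Variations were joined on identifier and junction coordinates, with Python 3.11.15, pandas 2.3.3 and scipy 1.17.1. Entropy was computed on shares rescaled to sum to 1, with unused entries included. Entries were matched to introns of GENCODE M21 (GRCm38), and to JUM by coordinates with the higher one offset by 2 bp. Unannotated means that this annotation has no intron at those coordinates on the same strand. No PSI value here is per library, so there is no test between diets. Genes were named by rule: the largest differences past the PSI rule (12 genes outside and 4 within multi-copy families), other leading entries (8), highest entropy (6), most entries (3), largest entropy differences (4 per direction), shares most alike (4), variations in the authors' tables and list members past the rule. Members, lists and rules were chosen with earlier results of these data known. Results for some genes that fall under these rules are not reported here.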

Additional observations from a re-analysis of the deposited data

How the results depend on the processing

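No paired analysis was possible because PSI was deposited as 1 pooled value per diet. Leaving out a library was impossible for the same reason. Past the PSI rule were 31 variations. Their number was 231 at a difference of 0.1, 10 at 0.3, 20 among the variations with at least 5 entries and 15 with the variation of most entries per gene, the last 2 over fewer candidates. No complex variation with a difference of 0.2 or more was held back by its posterior variances, so the calls rested on that difference alone. Of the 31, 1 had an entry without length. The count stayed within 1.5 times of 31 over 3 posterior SDs, without entries that lack length, without multi-copy families (21), with competing entries only (24, chosen after seeing the data) and without opposite-strand entries (31, also chosen afterwards). In the last, 27 of the 31 were still past the rule. Nr1i3 reversed to -0.013, Ctsa fell to 0.061, and Tcp1 and E130218I03Rik lost their call with the dropped entries, while 4930581F22Rik, Gm9929, Rnf123 and Snapc3, named after their values were seen, passed the rule. Of the 77 variations with another leading entry, 7 had a lead of at least 0.1 on both diets, 46 had at least 5 entries and 43 had competing entries only. Entropy was higher on HFD in 45.1%, in 47.8% of 391 variations of matched effective read number and in 42.2% with at least 5 entries, and other settings gave 44.8% to 46.1%. At a PSI of 0.02 for a used entry, 665 variations had 1, against 1022 at 0.05 and 1361 at 0.1. The largest posterior SD was 0.0735, and the widest entry of a variation had a median SD of 0.0198, which bounds the differences that pooled reads can show.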
